A study of Mus musculus with 9 samples.

Results

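The 9 genes described here encode parts of the machinery by which kidney proximal tubule cells take up filtered protein at their apical surface: Lrp2, Cubn, Amn, Dab2, Clcn5, Ocrl, Ehd1, Myo6 and Rab11a. They were chosen by symbol, as the rows of the deposited count and TPM tables that carry these names, and they are 9 of the 55487 genes in those tables. Of the 9, 8 passed the filter on low counts and were among the 16353 genes tested; Amn did not pass.

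The RNA came from PT-22, a mouse cell line labelled as kidney proximal tubule, in a modified form named PT-22,Pax8-pTRIPZ; pTRIPZ is a doxycycline-inducible lentiviral vector. All 9 libraries, controls included, share the genotype Pax2-/-, Pax8fl/fl, Rosa-CreERT2: the labels thus give Pax2 as null and Pax8 as carrying loxP sites, and Cre recombinase fused to an oestrogen receptor domain is expressed from the Rosa locus and is switched on by 4-hydroxytamoxifen. Day 0 is 3 libraries of untreated cells, day 6 is 3 libraries after 4-hydroxytamoxifen at 1 uM, given to deplete the transcription factor PAX8, and day 12 is 3 libraries after the same drug and then doxycycline at 1 ug/ml. The labels give 2 days of 4-hydroxytamoxifen in one place and 6 days of depletion in another, followed by 6 days of doxycycline renewed every 2 days, in medium with 3% serum throughout. Whether the lettered replicates came from separate cultures is not stated, so a p-value reflects library-to-library spread that may be technical only. No vehicle-treated cells, untreated cells kept to day 6 or day 12, or depleted cells kept to day 12 without doxycycline were analysed here, so drug, time in culture and PAX8 level cannot be told apart. All groups are 1 modified line, and in bulk RNA fewer cells of a kind and less RNA per cell cannot be told apart.

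By way of background, megalin (Lrp2) and cubilin (Cubn) are large receptors in the apical membrane that bind filtered albumin, vitamin carriers and other small proteins; cubilin needs the small membrane protein amnionless (Amn) to reach the surface. The adaptor Dab2 links megalin to clathrin and to the motor myosin VI (Myo6), which moves coated vesicles inward along actin. The chloride/proton exchanger ClC-5 (Clcn5) acts in the acidification of early endosomes, the lipid phosphatase OCRL (Ocrl) removes a phosphate from membrane inositol lipids, and EHD1 and RAB11A act in the return of receptors to the surface. Inherited loss of CLCN5 or OCRL in people causes Dent disease or Lowe syndrome, in which small proteins appear in the urine.

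Library totals ran from 56397100 to 86765292 counts, and 3 counts, the limit that a count of 0 allows, were worth 0.0358 to 0.0516 CPM (counts scaled to a common library size). Pax8 itself had 291 ± 1.67, 405 ± 5.87 and 496 ± 7.79 CPM at day 0, 6 and 12 (SD, n = 3), higher in the nominally depleted libraries than before; a count over the whole gene does not show whether floxed exons were lost and does not separate a transgene from the native gene. Pax2, labelled as null, had 31.9 ± 2.36, 46.9 ± 3.23 and 52.3 ± 3.19 CPM (SD, n = 3), and a whole-gene count likewise does not show which exons the allele lacks. Mitochondrial transcripts made up 6.66% to 7.18% of counts at day 0 and day 6 and 2.10% to 3.96% at day 12, where replicate B stood highest. Of TPM they made up 19.9% to 21.7% at day 0 and day 6 and 11.4% to 15.0% at day 12. With mitochondrial genes left out of the count fit, the 8 tested members kept their calls and directions in all 3 comparisons. The TPM values were not rescaled without these genes. Of 31 proximal tubule markers, 20 were too low to test, and Slc34a1, Slc5a12, Slc22a6, Slc22a12, Cyp2e1 and Kap were at 0 in every library. The summed TPM of that list was 122 to 139 at day 0, 223 to 236 at day 6 and 252 to 286 at day 12. Its largest part on each day was Aqp1, a water channel at 65.2, 184 and 216 TPM. Aqp1 made up most of the sum at day 6 and day 12. Most of the tested markers went the other way at day 6: of the 11 markers tested 8 fell and 3 rose against day 0, with a median log2 fold change of -0.67. Over all genes tested 31.4% fell and 33.5% rose in that comparison. From day 6 to day 12, 5 markers rose and 2 fell, against 22.6% and 22.7% of all genes. The markers of a differentiated proximal tubule are thus largely absent from these cells, and the label is used here only as the submitters' name. Podocyte markers summed to 134 to 144, 89.1 to 93.7 and 135 to 148 TPM at day 0, 6 and 12, mostly from Synpo and Podxl, with Ptpro at 0 in every library. In the same order of days, loop and distal tubule markers summed to 4.63 to 4.72, 15.6 to 16.6 and 12.9 to 14.6 TPM, mostly from Trpm6, with Cldn16 and Trpv5 at 0. Collecting duct markers summed to 3.52 to 4.34, 1.80 to 2.37 and 3.13 to 3.71 TPM (Foxi1 at 0), and stromal markers to 6.37 to 7.0, 5.13 to 5.55 and 9.47 to 10.6 TPM. Endothelial markers summed to 13.3 to 15.3, 13.0 to 15.6 and 17.3 to 18.7 TPM (Cdh5 and Kdr at no more than 1 count), and immune markers to 32.4 to 36.5, 27.1 to 31.0 and 31.4 to 34.5 TPM (Cd3e and C1qa at 0). The part of these markers in the results below was not tested.

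Levels of different genes are compared per transcript length, in TPM (the authors' transcript abundance). At day 0 the order was Rab11a (179.5 TPM), Ehd1 (98.0), Clcn5 (44.3), Myo6 (39.2), Lrp2 (33.3), Dab2 (19.3), Ocrl (12.5), Cubn (0.337) and Amn (0.0567), and neighbours in that order did not overlap between libraries. Lrp2 stood above 82.4% of the genes detected at day 0, and Cubn above 39.4%. So megalin RNA was abundant in the untreated cells and RNA for the cubilin-amnionless receptor was scarce. By day 6 Lrp2 had moved from the fifth to the seventh place, at 5.20 TPM, and Dab2 from the sixth to the third, at 37.8 TPM, where its range overlapped that of Myo6 (34.3 TPM); the remaining neighbours did not overlap. At day 12 the order was that of day 6 except that Myo6 (39.4 TPM) and Dab2 (37.4 TPM), again overlapping, had changed places.

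**Figure D1:**
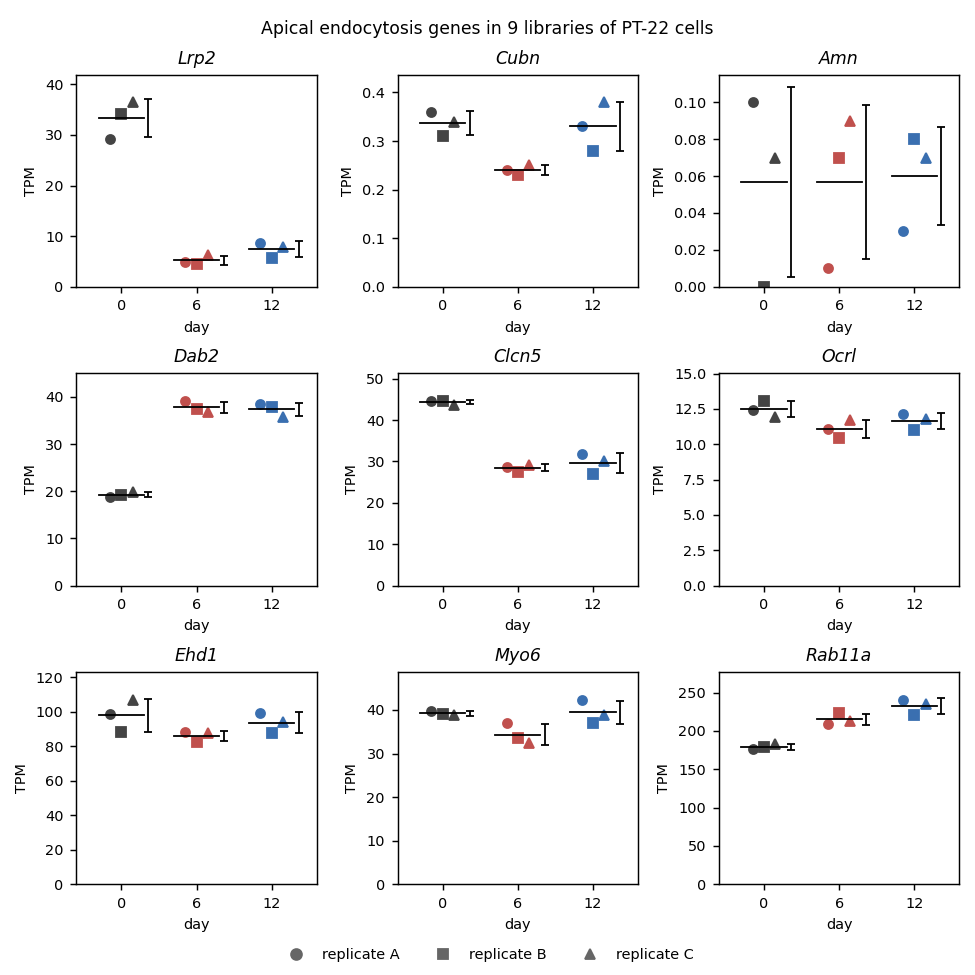
TPM of each of the 9 genes in every library, 1 panel a gene with its own axis from 0, by day 0, 6 and 12; points are libraries (A, B, C), horizontal lines group means and error bars 1 SD. Lrp2 lies at 29.2 to 36.5 TPM at day 0 and at 4.45 to 8.62 TPM afterwards, Dab2 moves up, and Cubn and Amn stay below 0.4 TPM in every library.

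Lrp2 encodes megalin and lies at chr2:69424340-69586065 on the minus strand (GRCm38), a protein-coding gene with no exon of another gene over its own. Lrp2 was at 343, 400 and 430 CPM in the day 0 libraries A, B and C, at 55.2, 50.5 and 70.5 CPM at day 6, and at 82.0, 57.3 and 76.0 CPM at day 12. Every treated library was far below every day 0 library, while the ranges of day 6 and day 12 overlapped. Mean Lrp2 fell to 15.0% of its day 0 CPM at day 6, a log2 fold change of -2.74 ± 0.129 (SE; 6.68-fold; edgeR quasi-likelihood adjusted p = 4.49e-11), which ranked 136 from the bottom of the 16353 genes. At day 12 it was still at 18.3% of day 0 (log2 fold change -2.45 ± 0.127, adjusted p = 1.86e-10). From day 6 to day 12 the difference of 0.29 ± 0.127 on the log2 scale missed the threshold (adjusted p = 0.0759, 95% interval of the unadjusted estimate 0.0197 to 0.565), but it passed without day 6 replicate C (adjusted p = 0.0101) and without day 12 replicate B (adjusted p = 0.00431).

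Promoter sequence is shown for Lrp2 and Dab2, the members with the largest fall and the largest rise, to let their starts be compared; it comes from RefSeq (GRCm38.p6) and covers the 250 bases before each start. For 8 of the 9 genes a promoter was matched, giving 10 windows. Capitals mark a GC box (GGGCGG) in Lrp2, 143 and 88 bases before the start, and the letters GTTAAT, part of the site of the factor HNF1, in the second Dab2 window, 65 bases before the start.
Lrp2, chr2:69586030-69586279, minus strand: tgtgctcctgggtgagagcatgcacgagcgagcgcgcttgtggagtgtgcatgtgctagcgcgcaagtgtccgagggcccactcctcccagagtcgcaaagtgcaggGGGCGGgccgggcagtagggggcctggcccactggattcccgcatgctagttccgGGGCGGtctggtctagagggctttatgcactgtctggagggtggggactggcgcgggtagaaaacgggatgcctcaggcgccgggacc
Dab2 upstream start, chr15:6299539-6299788, plus strand: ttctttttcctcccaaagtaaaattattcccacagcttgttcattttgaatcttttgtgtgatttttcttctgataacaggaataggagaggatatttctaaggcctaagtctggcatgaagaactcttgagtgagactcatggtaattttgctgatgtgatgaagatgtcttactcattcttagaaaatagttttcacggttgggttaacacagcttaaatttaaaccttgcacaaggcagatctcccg
Dab2 downstream start, chr15:6386498-6386747, plus strand: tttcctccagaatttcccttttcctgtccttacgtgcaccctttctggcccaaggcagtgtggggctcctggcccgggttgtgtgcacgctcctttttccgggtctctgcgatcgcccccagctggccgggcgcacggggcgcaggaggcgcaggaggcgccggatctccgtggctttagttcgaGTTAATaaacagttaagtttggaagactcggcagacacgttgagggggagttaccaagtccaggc
The Lrp2 window is 66.4% G and C, against a median of 52.4% over 32851 mouse promoter windows of this length, while the Dab2 windows are 36.8% and 60.0% G and C. The letters GCGTGAC, a core of the site bound by the paired domain of PAX2, PAX5 and PAX8, were in 0 of the 10 windows and in 1.78% of all windows, searched on both strands. The GC box was in 6 of the 10 windows (32.7% of all), GTTAAT in 1 (6.43%), CCAAT in 3 (33.8%), TATAAA in 1 (12.4%) and CACGTG in 1 (6.02%). A pair of GC box matches in the Myo6 window overlapped each other. A match describes letters in a window, and a missing match says only that these letters are not in these 250 bases.

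Cubn, the cubilin gene (chr2:13276338-13491813, minus strand), was present at only 3.06, 2.65 and 2.87 CPM at day 0, 1.99, 1.88 and 2.03 CPM at day 6, and 2.25, 2.06 and 2.65 CPM at day 12. All day 6 libraries were below all others. Cubn fell by 0.54 ± 0.122 on the log2 scale from day 0 to day 6 (edgeR adjusted p = 0.00107); on log2(TPM + 1) that step was -0.11 and was not called (limma adjusted p = 0.0718). Its difference from day 6 to day 12 was 0.23 (adjusted p = 0.142), and at day 12 it was lower than at day 0 by a log2 fold change of -0.31 ± 0.119 (adjusted p = 0.0324). That last call was lost without day 0 replicate A, day 0 replicate C, day 12 replicate A or day 12 replicate B (adjusted p = 0.119, 0.0616, 0.0866 and 0.135), and on the TPM scale Cubn at day 12 was at 98.0% of its day 0 level. An antisense gene model, Gm13270, shares 2.46% of the exon bases of Cubn, and the strand setting of the counting is not given in the sources used here.

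Amn, which encodes amnionless (chr12:111271095-111276426, plus strand), had 5, 0 and 3 counts at day 0, 1, 4 and 3 at day 6, and 1, 3 and 2 at day 12. These values lie at or near the 3-count floor in all 9 libraries, so no difference in Amn was detectable at this depth. The ratio of Lrp2 to Cubn TPM within a library was 99.6 ± 16.2 at day 0 and 21.6 ± 3.10 at day 6 (SD, n = 3), so megalin RNA exceeded cubilin RNA in all groups while the gap narrowed.

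Dab2 moved opposite to its receptor. The gene (chr15:6299788-6440712, plus strand) encodes the clathrin adaptor that binds the tail of megalin. Dab2 was at 46.0, 46.9 and 50.6 CPM at day 0, 93.0, 95.5 and 93.2 CPM at day 6, and 82.3, 87.8 and 80.5 CPM at day 12, with no overlap in CPM between any pair of groups. It rose by a log2 fold change of 0.97 ± 0.0408 from day 0 to day 6 (1.96-fold, edgeR adjusted p = 1.06e-11) and was 1.75-fold above day 0 at day 12 (adjusted p = 1.42e-10). From day 6 to day 12 it fell by 0.17 ± 0.0396 on the log2 scale (adjusted p = 0.00283). On log2(TPM + 1) that step was -0.017 and was not called (limma adjusted p = 0.744), and the TPM ranges of day 6 (36.9 to 39.1) and day 12 (35.8 to 38.4) overlapped. The ratio of Dab2 to Lrp2 TPM within a library averaged 0.584 ± 0.0544 (SD, n = 3) in untreated cells, 7.44 ± 1.37 after 4-hydroxytamoxifen and 5.21 ± 1.25 after doxycycline. The untreated cells thus held more megalin RNA than adaptor RNA per transcript length, and the treated cells the reverse, in every library. A gene model on the opposite strand, Gm18888, shares 2.87% of the exon bases of Dab2.

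Clcn5 had the second largest fall among the members. The gene is X-linked (chrX:7153810-7319358, minus strand). Clcn5 was at 215, 217 and 215 CPM at day 0, 128, 124 and 126 CPM at day 6, and 117, 102 and 115 CPM at day 12. It fell 1.71-fold by day 6 (log2 fold change -0.77 ± 0.0418, edgeR adjusted p = 2.34e-10) and was 1.94-fold below day 0 at day 12 (-0.96 ± 0.0420, adjusted p = 2.56e-11). The further difference from day 6 to day 12 was -0.18 ± 0.0422 in CPM (adjusted p = 0.00253) but 0.055 on log2(TPM + 1) (limma adjusted p = 0.426), so its direction depends on the scale.

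Ocrl, also X-linked (chrX:47912387-47965868, plus strand), fell by far less. It was at 44.5, 44.7 and 43.0 CPM at day 0, 37.8, 35.5 and 38.6 CPM at day 6, and 35.2, 33.7 and 35.4 CPM at day 12, with every treated library below every untreated one. Its log2 fold change at day 6 was -0.24 ± 0.0392 (edgeR adjusted p = 5.75e-05), and at day 12 against day 0 it was -0.34 ± 0.0392 (adjusted p = 1.63e-06). On log2(TPM + 1) neither was called, at -0.16 (limma adjusted p = 0.0504) and -0.094 (adjusted p = 0.208). The step between the treated groups missed the threshold (-0.10, adjusted p = 0.0504) and passed it without day 6 replicate B (adjusted p = 0.0170). That step also passed in DESeq2 (-0.11, adjusted p = 0.0397). On log2(TPM + 1) it was 0.064 and not called (limma adjusted p = 0.404). With each library centred on its median gene it was -0.145 on that scale and passed (limma adjusted p = 0.0417).

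Myo6, the motor gene (chr9:80165031-80311729, plus strand), was at 173, 175 and 174 CPM at day 0, 152 CPM in each day 6 library, and 151, 144 and 149 CPM at day 12. The fall at day 6 was small and uniform, at -0.20 ± 0.0280 (edgeR adjusted p = 1.67e-05), and at day 12 Myo6 was 1.17-fold below day 0 (adjusted p = 3.12e-06). In TPM, however, Myo6 at day 12 was at 100.5% of day 0, so the lower day 12 level was seen in CPM and not in TPM.

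Ehd1, whose product reshapes recycling membranes (chr19:6276725-6300096, plus strand), was at 184, 174 and 185 CPM at day 0, 141, 149 and 148 CPM at day 6, and 132, 132 and 133 CPM at day 12. It fell at day 6 (-0.30 ± 0.0324, edgeR adjusted p = 6.98e-07) and again to day 12 (-0.14 ± 0.0326, adjusted p = 0.00221), ending 1.36-fold below day 0 in CPM. On log2(TPM + 1) the second step was 0.12 (limma adjusted p = 0.159), and day 12 against day 0 was -0.059 (adjusted p = 0.469), with mean TPM at 95.8% of day 0; the first step was called there (adjusted p = 0.0449) but not without a filter (adjusted p = 0.104).

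Rab11a, the small GTPase of recycling endosomes (chr9:64715299-64737758, minus strand), was the most abundant member per length in each group and the one with the smallest change in CPM against day 0 among the 8 tested. It was at 133, 130 and 132 CPM at day 0, 140, 144 and 136 CPM at day 6, and 136, 132 and 141 CPM at day 12. It rose by 0.091 ± 0.0319 on the log2 scale at day 6 (edgeR adjusted p = 0.0207), a call that was lost without day 0 replicate B, day 6 replicate A or day 6 replicate B (adjusted p = 0.0744, 0.0512 and 0.181). At day 12 against day 0 it was not called (0.054, adjusted p = 0.147), though it was called higher with upper-quartile factors (0.089, adjusted p = 0.0169) and on log2(TPM + 1) (0.37, limma adjusted p = 1.84e-05), where mean TPM was 129.5% of day 0. Against day 6 it was not called either (-0.037, adjusted p = 0.378), and the day 12 range in CPM overlapped both. Without day 12 replicate B the comparison with day 0 passed (adjusted p = 0.0495). On log2(TPM + 1) the step from day 6 to day 12 was called higher (0.11, limma adjusted p = 0.0348). It was called lower after each library was centred on its median gene (-0.099, limma adjusted p = 0.0462). With a trend in transcript length removed it was also called lower (-0.088, edgeR adjusted p = 0.0333). The ratio of Ehd1 to Rab11a TPM was 0.546 at day 0 and 0.401 at day 6. A gene model on the same strand, Gm47308, shares 3.58% of the exon bases of Rab11a.

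For all members together at day 6 against day 0, 2 rose (Dab2 and Rab11a) and 6 fell (Lrp2, Cubn, Clcn5, Ocrl, Ehd1 and Myo6). All 8 were without overlap between the groups. Of the 158 tested genes of the surrounding pathway, 133 did not overlap either. The share over all genes was not counted, so the lack of overlap is not read as a result about these genes. Over all genes tested 64.9% were called in this comparison, 33.5% higher and 31.4% lower, so a call by itself is not a result about these genes. The median log2 fold change of the 8 was -0.27, against 0.022 over all genes. In limma on log2(TPM + 1) the same 2 rose and 4 fell, with Cubn and Ocrl not called. Of all 16353 genes, 5179 rose and 4059 fell in that fit. From day 6 to day 12 none rose and 3 fell (Dab2, Clcn5 and Ehd1), at a background of 45.3% called, 22.6% higher and 22.7% lower. The edgeR estimate for Lrp2 was higher, at an unadjusted p of 0.0373, and did not pass after adjustment. DESeq2 called 0 members higher, against 3262 of all 16353 genes. Limma on log2(TPM + 1) called 3 members higher, against 7998 of all 16353 genes. At day 12 against day 0, 1 rose (Dab2) and 6 fell (all others but Rab11a), at a background of 66.4%, 34.7% higher and 31.7% lower. The day 6 and day 12 comparisons with day 0 share the 3 day 0 libraries, and those of day 12 and day 0 with day 6 share the 3 day 6 libraries, so they are not independent.

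**Figure D2:**
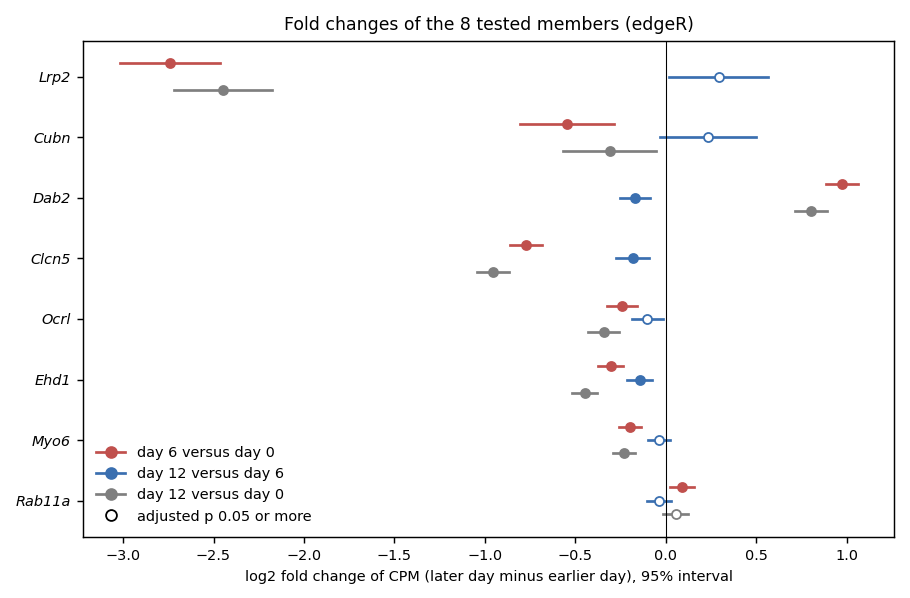
Log2 fold change of the 8 tested members in each of the 3 comparisons; points are edgeR estimates (open where the adjusted p was 0.05 or more), bars their 95% intervals, and the vertical line marks 0. Lrp2 at -2.74 and Dab2 at 0.97 stand apart at day 6 against day 0, and the steps from day 6 to day 12 lie near 0.

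The direction of the small day 12 steps depends on scaling. In CPM with TMM factors, which set library sizes from genes that change little, 50.0% of the calls at day 12 against day 6 were higher, and in upper-quartile scaling 60.5%; in log2(TPM + 1) it was 90.1%, with the median of all genes shifted by 0.16, and after centring each library on its median gene 36.3%. For day 12 against day 0 the shares were 52.3%, 56.5%, 81.3% and 35.6%, with a median of 0.19 in log2(TPM + 1). The fall of Lrp2 and Clcn5 and the rise of Dab2 against day 0 passed the threshold in the same direction in each of the 17 alternatives run, Lrp2 between -2.89 and -2.47 at day 6.

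Lrp2 also varied more between replicates than the other members. Its coefficient of variation in CPM was 11.3%, 17.8% and 18.0% at day 0, 6 and 12, whereas those of the other tested members ran from 0.236% to 13.0%. Lrp2 has a transcript of 15460 bases, the longest of the 9, and the related receptor gene Lrp1, with 14888 bases, had coefficients of 9.59%, 15.7% and 18.5%. Within groups Lrp2 and Lrp1 deviated in the same direction in all 9 libraries: at day 12 replicate B, Lrp2 was at -0.31 and Lrp1 at -0.27 from their group means on the log2 scale. The 340 genes with a transcript of 10000 bases or more had a median deviation of -0.12 in that library, and of 0.083 and 0.041 in day 12 replicates A and C. These values show replicate differences that move with transcript length and their cause was not tested. An alternative added after the data were seen removed the trend in transcript length. That trend was fitted to deviations from the mean of all 9 libraries, so length-related differences between groups were removed with it. From day 6 to day 12 Lrp2 was then 0.64 (edgeR adjusted p = 3.39e-06) and Cubn 0.49 (adjusted p = 0.00377). The fall of Lrp2 at day 6 kept its call.

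**Figure D3:**
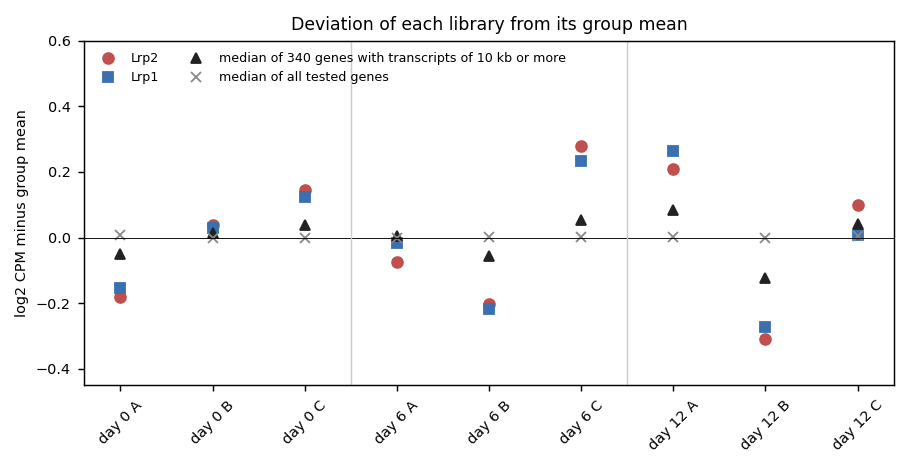
Deviation from the group mean (log2) in each of the 9 libraries, for Lrp2 (circles), Lrp1 (squares), the median of 340 genes with transcripts of 10000 bases or more (triangles) and the median of all tested genes (crosses). Lrp2 and Lrp1 lie on the same side of 0 in all 9 libraries, and the long genes on that side in all but day 6 replicate A.

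The surrounding pathway was read from 7 lists of 165 genes, of which 158 were tested. At day 6 against day 0, 72 rose, 51 fell and 35 were not called, a share called of 77.8%, and the median log2 fold change was 0.059. Over all genes tested 64.9% were called in this comparison, 33.5% higher and 31.4% lower, and the median was 0.022. Each list held genes called in both directions: of receptors and their partners 5 of 14 rose and 6 fell, of clathrin coat genes 13 of 30 rose and 11 fell, of early endosome genes 12 of 20 rose and 7 fell, and of recycling genes 15 of 38 rose and 14 fell. Of acidification genes 7 of 15 rose and 4 fell, of phosphoinositide genes 13 of 24 rose and 5 fell, and of myosin and microvillus genes 7 of 17 rose and 4 fell. The lists are described by counts and medians alone. The genes not tested for low counts were Lrp1b, Rab25, Slc9a3, Slc9a9, Atp6v1b1, Ush1c and Cdhr5; Slc9a3 and Cdhr5 encode a sodium/proton exchanger and a cadherin of the brush border.

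**Figure D4:**
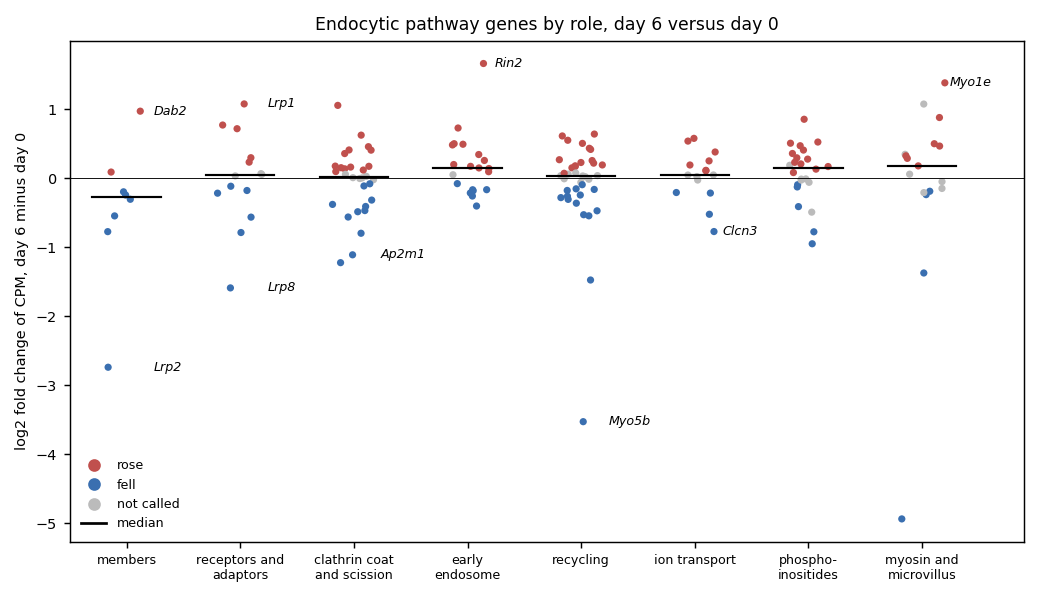
Log2 fold change at day 6 against day 0 for the tested genes of the 7 lists and the members; each point is a gene, coloured by its call, and the bar is the list's median. Medians lie between 0.019 and 0.18 in the 7 lists, and the largest named changes are the fall of Myo5b and the rise of Rin2; the lowest point, Pdzk1 in the myosin and microvillus list, was below the 5 CPM limit for naming.

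Among receptors related to megalin the changes were opposed. Lrp1, an endocytic receptor of the same family, was at 317, 360 and 384 CPM at day 0, 732, 637 and 871 CPM at day 6, and 512, 352 and 429 CPM at day 12. It rose 2.11-fold at day 6 (log2 fold change 1.08 ± 0.119, edgeR adjusted p = 1.05e-06) and fell 1.73-fold from there to day 12. The TPM ratio of Lrp2 to Lrp1, a ratio chosen after the values were seen, was 0.955 ± 0.0891 (SD, n = 3) in untreated cells, 0.0640 ± 0.00393 after 4-hydroxytamoxifen and 0.129 ± 0.0220 after doxycycline, so the pair went from near parity to a large excess of Lrp1. Lrp8, another receptor gene of that family, fell 3.01-fold at day 6 (54.5 to 18.1 CPM, adjusted p = 3.42e-13). Vldlr, at 696, 724 and 730 CPM, was not called in any comparison.

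In the clathrin coat, Ap2m1, the AP-2 subunit that binds cargo tails, fell from 773 to 359 CPM at day 6 (by a log2 fold change of -1.11 ± 0.0305, edgeR adjusted p = 7.88e-14) and rose to 529 CPM at day 12. The other AP-2 subunits, looked up after Ap2m1 was seen, did not move by as much: Ap2b1 fell by 0.48 and Ap2a2 by 0.32 on the log2 scale at day 6, and Ap2a1 and Ap2s1 were at 0.058 and 0.029 and not called. Dnm3, a dynamin, fell from 7.03 to 3.01 CPM (-1.22, adjusted p = 1.02e-07). Cltc, the clathrin heavy chain, rose from 738 to 835 CPM at day 6 and fell to 620 CPM at day 12. So the cargo-binding subunit and the heavy chain moved in opposite directions in both steps.

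At the early endosome, Rin2, a RAB5 exchange factor, rose 3.17-fold at day 6 (41.6 to 132 CPM, log2 fold change 1.66 ± 0.0320, edgeR adjusted p = 1.24e-15). Appl2, a RAB5 effector, rose from 42.2 to 69.9 CPM. From day 6 to day 12 Eea1, a tether of early endosomes, fell from 132 to 100.5 CPM, and Rin1 from 62.2 to 47.7 CPM.

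The largest change of a named pathway gene at day 6 was in recycling. Myo5b, a motor that carries RAB11A vesicles, was at 59.4, 60.1 and 67.8 CPM at day 0, 5.27, 5.73 and 5.18 CPM at day 6, and 12.2, 11.1 and 12.4 CPM at day 12. It fell 11.5-fold (log2 fold change -3.53 ± 0.0670, edgeR adjusted p = 1.13e-15) and then rose 2.19-fold (1.13 ± 0.0739, adjusted p = 1.76e-08), ending 5.26-fold below day 0. Rab11a, its partner, moved by 0.091 over the same step, and Rab11b, looked up afterwards, was at 0.024 and not called. Ccdc93, of the complex that retrieves cargo with the retromer-related coat, rose from 40.8 to 63.6 CPM at day 6, and Exoc5, an exocyst subunit, fell from 77.8 to 62.4 CPM by day 12.

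Of the acidification genes, Clcn3, a chloride/proton exchanger related to Clcn5, fell 1.71-fold at day 6 (113 to 66.3 CPM, edgeR adjusted p = 3.61e-12). Atp6v0a1, a subunit of the proton pump, rose from 124 to 180 CPM (adjusted p = 2.64e-10), and Atp6ap1, an accessory subunit, rose from 242 to 276 CPM between day 6 and day 12. Of the lipid enzymes, Inpp5j, a 5-phosphatase like Ocrl, fell from 12.4 to 6.42 CPM at day 6 (adjusted p = 5.06e-09), and Pik3c2b rose from 5.03 to 9.11 CPM. Inpp5k, a further 5-phosphatase, rose to 38.3 CPM at day 6 and fell to 27.1 CPM at day 12, close to its day 0 level of 26.9 CPM. Of the myosin genes, Myo1e rose from 45.6 to 119 CPM (1.38 ± 0.0336 on the log2 scale, adjusted p = 1.69e-14) and Optn, which encodes the myosin VI binding protein optineurin, from 53.5 to 98.5 CPM. Myo6 itself fell over that step.

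**Figure D5:**
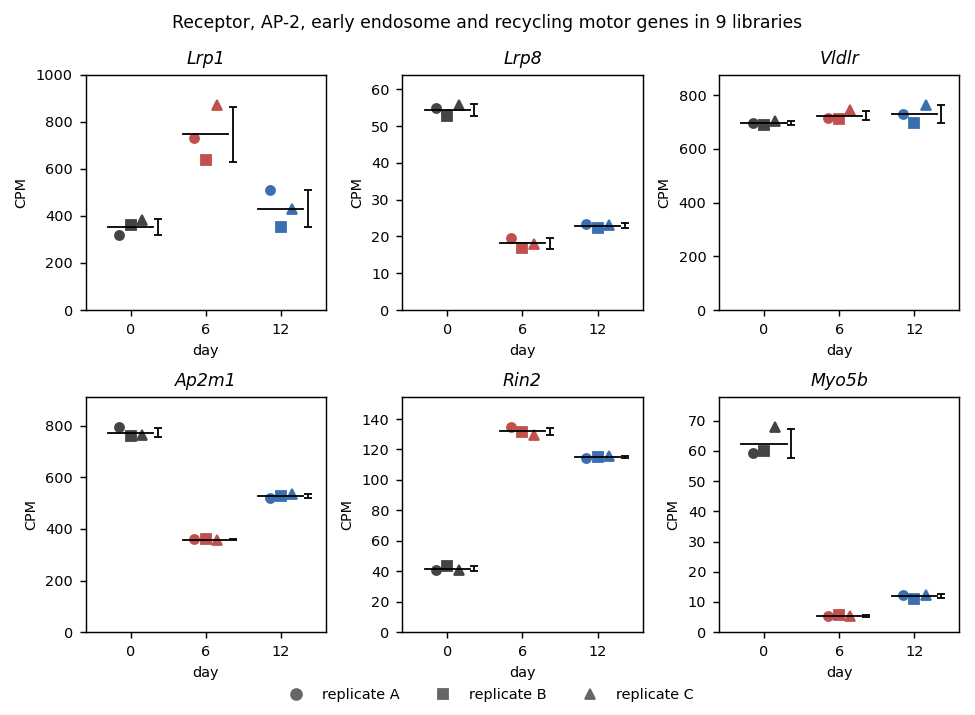
CPM of Lrp1, Lrp8, Vldlr, Ap2m1, Rin2 and Myo5b in the 9 libraries by day, each panel with its own axis from 0; points are libraries, horizontal lines group means and error bars 1 SD. Myo5b goes from a mean of 62.4 to 5.40 and then 11.9 CPM, Lrp1 is highest at day 6, and Vldlr lies between means of 696 and 730 CPM.

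From day 6 to day 12, 31 of the 158 pathway genes rose and 57 fell, with a median of -0.027. Over all genes 22.6% were higher and 22.7% lower (45.3% called). In limma on log2(TPM + 1) the balance was the opposite, and 94 pathway genes rose and 10 fell. The balance over all 16353 genes was also toward a rise in that fit (7998 rose and 878 fell). At day 12 against day 0, 63 rose and 56 fell (median 0.011), against 34.7% of all genes higher and 31.7% lower. The genes whose level ran most like Lrp2 over the 9 libraries were Agfg1, Prkaa2 and Kif13b (Pearson r of log2 CPM 0.998, 0.998 and 0.997), among 10246 genes compared. For Dab2 they were Wtip, Kalrn and Egln3 (0.999, 0.998 and 0.998). With 9 libraries in 3 groups such r values rest on the group differences, and 43 genes for Lrp2 and 214 for Dab2 had r over 0.99.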

How the data were processed

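Polyadenylated RNA from 9 mouse PT-22 libraries, 3 per group, was sequenced. The deposited tables give whole-number counts per gene, and the authors' TPM values, which are scaled by transcript length and library. The submitters' processing notes name cutadapt 2.3, FastQC 0.11.8, STAR 2.7.8a and RSEM 1.3.3 with the build GRCm38. What each tool did, the annotation release and the strand setting were not given in the sources used here. Counts produced by RSEM would be estimates, rounded by the authors before deposit. Rounding and the split of reads shared by overlapping genes could move low values such as those of Amn. Counts ranged from 56397100 to 86765292 per library, without the 4 transgene rows, which were left out of totals and tests. Intervals rest on the spread between libraries estimated by the fit, and floors cover counting error only.

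Counts were tested with edgeR 4.0.16 in R 4.3.3: TMM factors, filterByExpr by group, and a quasi-likelihood F test in 1 fit of all 9 libraries with 6 residual degrees of freedom. Benjamini-Hochberg adjustment ran over 16353 genes, with calls at an adjusted p under 0.05. Standard errors are the absolute log2 fold change divided by the square root of F. CPM used TMM library sizes. Levels between genes used TPM; as alternatives, limma 3.58.1 was run on log2(TPM + 1) and log2(TPM + 0.1), and DESeq2 1.42.0, upper-quartile factors, no filter, 2 groups alone, no mitochondrial genes, a replicate block and each library left out were run on the counts. Fold changes on log2(TPM + pseudocount) understate the change of low genes. The fit was tested on simulated counts with known changes.

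The members and the gene lists were chosen with earlier results of these data known. Named pathway genes are the 2 with the largest absolute log2 fold change in each list among those called and at 5 CPM or more in the higher group, for day 6 against day 0 and day 12 against day 6; genes looked up in addition are marked as such, and some named by this rule are not reported here. Positions are from GENCODE on GRCm38 and promoters from RefSeq.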

Additional observations from a re-analysis of the deposited data

How the results depend on the processing

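The falls of Lrp2 and Clcn5 and the rise of Dab2 against day 0 kept direction and call in all 17 alternatives of each comparison; the other members depended on settings as follows, and the cause was not tested. The number of members that rose at day 6 against day 0 was 1 instead of 2 with the transcript length trend removed, and 1 to 2 with a library left out. On log2(TPM + 1) 4 instead of 6 fell, where Cubn and Ocrl lost their calls. Without a filter on that scale 4 fell as well, where Ocrl and Ehd1 lost theirs. Of all genes, 5472 rose and 5133 fell there as reported, against 5179 and 4059 on log2(TPM + 1). They were 4964 and 3823 on that scale without a filter, and 5299 and 5445 with the length trend removed. At day 12 against day 6 Lrp2 alone rose with upper-quartile factors, with no filter on low counts and with the replicate block. In limma on log2(TPM + 1) without a filter Myo6 alone rose (adjusted p = 0.0394). With limma on log2(TPM + 1) and on log2(TPM + 0.1) 3 rose, Lrp2, Myo6 and Rab11a. With the length trend removed 3 rose, Lrp2, Cubn and Myo6, and 0 to 1 rose with a library left out. Lrp2 stayed uncalled in this comparison in 9 of the 17 alternatives. The members that fell in that comparison numbered 0 in the 3 uncentred TPM fits. They numbered 4 in DESeq2 and 4 after centring, with Ocrl among them in both, while 3793 and 4425 of all genes fell. Of all 16353 genes, limma on log2(TPM + 1) called 7998 higher and 878 lower there. Upper-quartile factors gave 4613 and 3007, and removing the length trend gave 3474 and 3852. The unfiltered fit estimates an infinite prior df, against 8.45, and gives Lrp2 a standard error of 0.0381 against 0.127. Against day 0, 2 members rose at day 12, Dab2 and Rab11a, with upper-quartile factors and in the 3 uncentred TPM fits. In those TPM fits 2 fell. With a library left out 1 to 2 rose.

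Pathway genes at day 12 against day 6 numbered 94 that rose and 10 that fell in both TPM fits. They numbered 90 and 8 without a filter, and 18 rose after centring. At day 12 against day 0 they were 105 and 18, and 103 and 17 without a filter. Of all 16353 genes, limma on log2(TPM + 1) called 7998 higher and 878 lower at day 12 against day 6. Against day 0 it called 8455 and 1939. Directions changed at day 12 against day 6 for Myo6 (0.0036 with upper-quartile factors, 0.19 on log2(TPM + 1) with or without a filter, 0.20 on log2(TPM + 0.1), 0.12 with the length trend removed), Rab11a (0.0019 with upper-quartile factors, 0.11 in the TPM fits), Clcn5 (0.055 and 0.056), Ocrl (0.064 and 0.069), Ehd1 (0.12 in the TPM fits) and Cubn (-0.11 after centring). Against day 0 at day 12 they changed for Myo6 (0.0050 and 0.0051 in the TPM fits) and Rab11a (-0.014 with the length trend removed). Centring and the length trend were added after the data were seen.

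Same-letter replicates did not pair: 9 pairs of deviations had r from -0.083 to 0.078, and 0 of the libraries correlated best with their own letter in both other groups. The replicate block moved the all-gene calls at day 12 against day 6 from 3702 and 3706 to 3593 and 3628, and Lrp2 there passed (adjusted p = 0.0301). Amn and, in part, Cubn are limited by depth.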
